A study of Homo sapiens with 2 samples.

Results

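The genes described here encode the COPI vesicle coat: COPA, COPB1, COPB2, COPE, COPG1, COPG2, COPZ1, COPZ2 and ARCN1. They were picked by name, 9 of 19927 gene rows in the deposited table, with the low value of COPB2 in these libraries already known. All values below for these genes are therefore a description. Gene expression was measured by polyadenylated RNA sequencing in Huh7, an established human hepatocellular carcinoma line. One culture carried a short hairpin RNA against PPIL1 (labelled PPIL1 knockdown and called shPPIL1), and the other carried a control hairpin (labelled WT in its genotype field and called shControl). Each group holds 1 library, so no difference has a replicate check and no p-value is given. With 1 hairpin against PPIL1, loss of PPIL1 and any other effect of that hairpin cannot be told apart.

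COPI is the coat that buds vesicles from the Golgi apparatus. It carries escaped proteins and recycling receptors back to the endoplasmic reticulum (ER) and moves cargo between Golgi cisternae. The small GTPase ARF1 recruits the coat as a single preassembled complex called coatomer. Coatomer has an outer, cage-like layer of the alpha, beta-prime and epsilon subunits (COPA, COPB2 and COPE) and an inner, adaptor-like layer of beta, gamma, delta and zeta (COPB1, COPG1 or COPG2, ARCN1, and COPZ1 or COPZ2). Each subunit is present once in the complex. The alpha and beta-prime subunits carry WD-repeat propellers that bind dilysine signals at the tails of cargo proteins.

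The libraries held 41165401 counted reads (shPPIL1) and 41015345 (shControl). PPIL1, a cyclophilin of the activated spliceosome, had 104 reads in shPPIL1 against 1505 in shControl, which is the direction of the labels. The 9 hepatocyte markers examined (ALB, AFP, APOA1, APOB, TTR, TF, SERPINA1, HNF4A and FGB) summed to 10881 FPKM in shPPIL1 and 10523 FPKM in shControl, with TF the lowest at 64.8 FPKM in shPPIL1 and 68.8 FPKM in shControl. FPKM is the authors' read count divided by gene length and by the library total. The 4 fibroblast markers summed to 2.31 FPKM in shPPIL1 and 1.90 FPKM in shControl, and the 3 endothelial markers to 1.34 FPKM in shPPIL1 and 1.58 FPKM in shControl. The 4 leukocyte markers summed to 19.9 FPKM in shPPIL1 and 20.8 FPKM in shControl, nearly all from CD68. COL1A2 was at 0 reads in both libraries, PTPRC had 10 reads in shPPIL1 and 4 in shControl, and CD3E had 2 in shPPIL1 and 1 in shControl.

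COPB2, the beta-prime subunit, was the only COPI gene with a large difference. It had 5411 reads, or 41.4 FPKM, in shPPIL1, against 12110 reads, or 93.0 FPKM, in shControl. With library sizes scaled by trimmed mean of M values (TMM), the ratio of shPPIL1 to shControl was 0.439, with an exact 95% counting interval of 0.425 to 0.453. On the log2 scale this ratio was -1.19. Such intervals treat reads as independent and leave out variation between cultures and libraries. Reads amplified by PCR are not independent molecules, so the intervals can be too narrow even for counting error. In bulk RNA, fewer cells that express a gene and less of its RNA per cell cannot be told apart.

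COPB2 lies on the minus strand of chromosome 3, from 139355600 to 139389732 (GRCh38, GENCODE release 29), and its longest coding transcript has 22 exons and encodes 906 amino acids. Its exons share 86 of 8177 bases with those of MRPS22, a mitochondrial ribosomal protein gene on the opposite strand, whose ratio was 0.942 (0.883 to 1.01). The next protein-coding gene on the other side is RBP2, which encodes a retinol-binding protein. RBP2 had 6227 reads in shPPIL1 and 5835 in shControl, a ratio of 1.05 (1.01 to 1.09). Neither of these neighbours was as much as 1.2-fold lower.

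The other outer-layer subunits differed by small factors. COPA, the alpha subunit, had 15944 reads (72.6 FPKM) in shPPIL1 and 16293 reads (74.5 FPKM) in shControl, a ratio of 0.961 (0.941 to 0.983). COPE, the epsilon subunit, which binds alpha and stabilises it, had 8946 reads (212 FPKM) in shPPIL1 and 9485 reads (226 FPKM) in shControl, a ratio of 0.927 (0.900 to 0.954). For both genes the interval excluded 1, yet the shPPIL1 level stayed within 1.1-fold of the shControl level.

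The inner-layer subunits were also close to equal. COPB1, the beta subunit, had 10993 reads (79.5 FPKM) in shPPIL1 and 10584 reads (76.9 FPKM) in shControl, a ratio of 1.02 (0.993 to 1.05). ARCN1, the delta subunit, had 14225 reads (91.9 FPKM) in shPPIL1 and 14256 reads (92.4 FPKM) in shControl, a ratio of 0.980 (0.958 to 1.00). COPG1, the more abundant gamma gene, had 9169 reads (72.4 FPKM) in shPPIL1 and 9294 reads (73.6 FPKM) in shControl, a ratio of 0.969 (0.942 to 0.998). COPZ1, the more abundant zeta gene, had 4083 reads (53.2 FPKM) in shPPIL1 and 4128 reads (54.0 FPKM) in shControl, a ratio of 0.972 (0.930 to 1.01). Of these 4 genes, COPG1 alone had an interval that excluded 1, and it included 1 when the libraries were scaled by their total reads or by DESeq2 size factors.

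The second gamma and zeta genes were expressed at low levels. COPG2 had 655 reads (5.09 FPKM) in shPPIL1 and 737 reads (5.75 FPKM) in shControl, a ratio of 0.873 (0.785 to 0.971). Its exons share 228 of 4139 bases with the opposite-strand gene MEST, whose ratio was 0.916 (0.875 to 0.960). COPE shares 264 of 2885 exon bases, and COPB1 407 of 5131, with another annotated gene on the same strand that was not analysed here. The strand setting of the counting is not given in the sources used here, so reads from the stretch shared by COPG2 and MEST cannot be assigned to either gene. COPZ2 had 152 reads (4.33 FPKM) in shPPIL1 and 120 reads (3.43 FPKM) in shControl, a ratio of 1.24 (0.973 to 1.59). The interval of COPZ2 reached from slightly below equal expression to more than 1.5-fold higher, so a difference was not detectable at this depth.

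**Figure D1:**
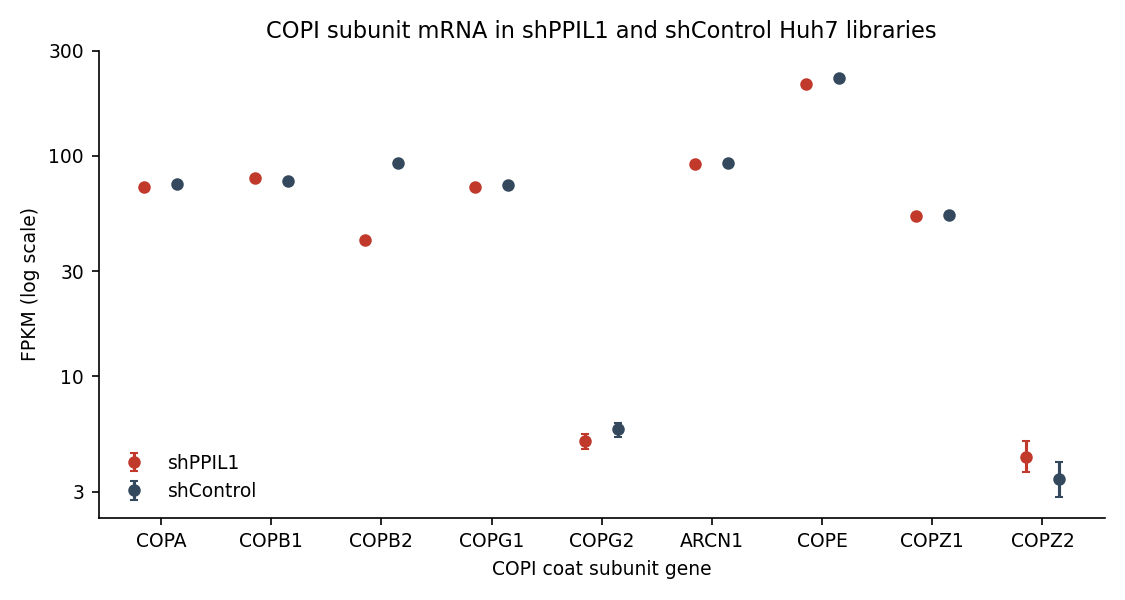
FPKM on a log scale for the 9 COPI genes in the shPPIL1 library (red) and the shControl library (dark blue); bars are exact 95% Poisson counting intervals, smaller than the point for most genes. COPB2 stands at 41.4 FPKM in shPPIL1 and 93.0 FPKM in shControl, while the pairs of the other genes lie close together.

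Taken as counts, 1 of the 9 COPI genes was at least 2-fold lower with an interval excluding 1, and 0 were at least 2-fold higher. Over all 12540 genes kept at 1 CPM (a read count scaled to library size) or more in at least 1 library, 0.518% were that much lower and 0.526% that much higher. At 1.2-fold the COPI counts were the same, 1 lower and 0 higher, beside 9.52% lower and 8.32% higher among all kept genes. At any fold, 5 COPI genes were lower with an interval excluding 1 (COPA, COPB2, COPE, COPG1 and COPG2) and 0 were higher, beside 26.4% and 24.6% of kept genes. With scaling by total reads COPB1 had an interval above 1, which made the counts 4 lower and 1 higher, and with DESeq2 size factors the counts were 4 and 0. All 9 members passed the 1 CPM filter, from COPZ2 at 3.67 CPM to COPA at 385 CPM in shPPIL1. Whether a gene passes a fold and whether its interval excludes 1 both depend on read count. The shares over all kept genes are not matched to the depth of the COPI genes.

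The median log2 ratio of the COPI genes was -0.05, or -0.04 without COPB2, and that of all kept genes was 0.00. Without COPB2, the members ran from -0.20 (COPG2) to 0.32 (COPZ2), and the middle 50% of all kept genes ran from -0.13 to 0.12. Summed, the 8 other COPI genes had 64167 reads in shPPIL1 and 64897 in shControl, a ratio of 0.971 (0.961 to 0.982).

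COPB2 also stood at an edge among genes of like abundance. Of 3906 kept genes whose reads in both libraries sum to 5000 or more, 1 was at least 2-fold lower, namely COPB2, and 0 were at least 2-fold higher. The central 95% of these 3906 genes had log2 ratios from -0.35 to 0.26. Among all 12540 kept genes, 41 had a ratio as low as that of COPB2 or lower, COPB2 and PPIL1 included, and all but COPB2 had fewer than 5000 reads.

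**Figure D2:**
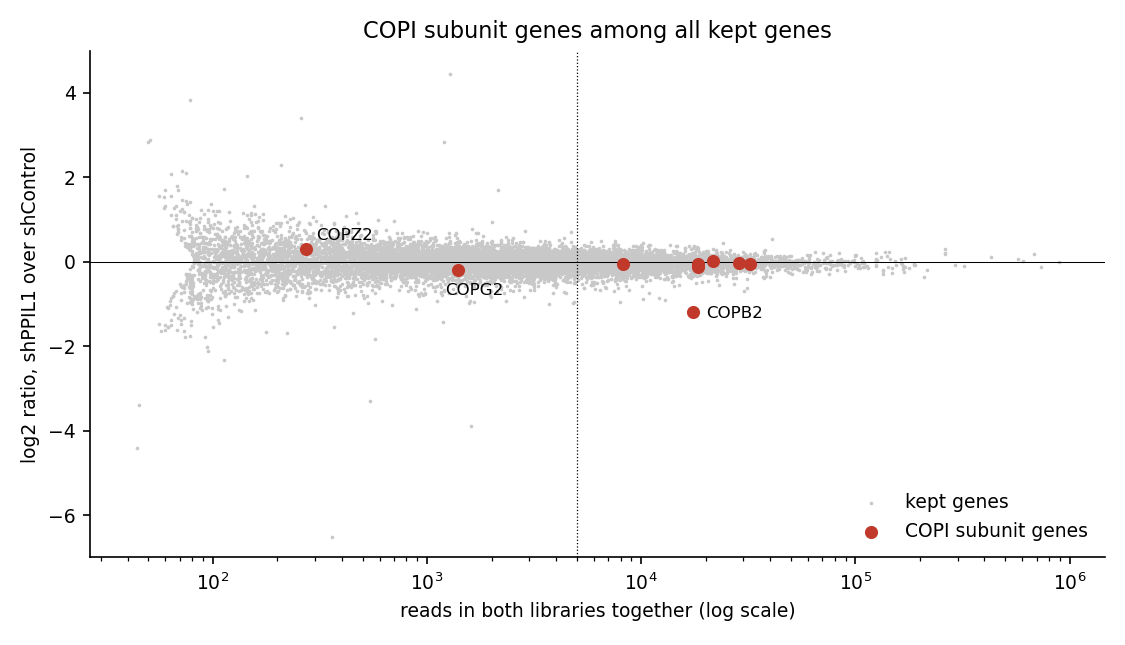
Log2 ratio of shPPIL1 over shControl against the reads of both libraries together (log scale) for all 12540 kept genes (grey) and the 9 COPI genes (red); the dotted line marks 5000 reads. COPB2, at -1.19, lies below every other gene to the right of that line, and the 6 unlabelled COPI genes lie near 0.

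The 5 genes of at least 5000 reads whose log2 ratio was closest to that of COPB2 over these 2 libraries were CANT1, CRKL, DAP, DDX21 and MYC. CANT1, a calcium-activated nucleotidase of the ER and Golgi, had 2743 reads in shPPIL1 and 5239 in shControl, a ratio of 0.514 (0.491 to 0.539). The adaptor protein gene CRKL had a ratio of 0.532 (0.513 to 0.551), and DAP, the death-associated protein, 0.542 (0.520 to 0.564). DDX21, a nucleolar RNA helicase, had a ratio of 0.555 (0.534 to 0.576) and the transcription factor MYC 0.604 (0.581 to 0.628). The closest, CANT1, was still 0.23 log2 units from COPB2.

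Per length, the order of the COPI genes differed between the libraries only around COPB2. In shPPIL1 the FPKM order from high to low was COPE, ARCN1, COPB1, COPA, COPG1, COPZ1, COPB2, COPG2 and COPZ2. In shControl it was COPE, COPB2, ARCN1, COPB1, COPA, COPG1, COPZ1, COPG2 and COPZ2. COPB2 was thus in place 7 in shPPIL1 and in place 2 in shControl, and the remaining 8 genes kept the same order. Counting intervals of neighbours overlapped for COPA with COPG1 and COPG2 with COPZ2 in shPPIL1. In shControl they overlapped for COPB2 with ARCN1, COPB1 with COPA, and COPA with COPG1.

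The coat can also be read by its 7 subunit positions, with both gamma genes and both zeta genes added together. The beta-prime position made up 6.55% of the summed COPI FPKM in shPPIL1 and 13.3% in shControl. It was the lowest of the 7 positions in shPPIL1 and the second highest in shControl. The level of COPB2 was 0.527 times the median of the other 6 positions in shPPIL1 and 1.19 times that median in shControl. That median was 78.5 FPKM in shPPIL1 and 78.1 FPKM in shControl. Epsilon was the highest position in both libraries, with 33.5% in shPPIL1 and 32.3% in shControl. In reads, COPB2 took 7.78% (7.58 to 7.98%) of all COPI reads in shPPIL1 and 15.7% (15.5 to 16.0%) in shControl, with exact binomial intervals. This share does not depend on how the libraries were scaled.

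**Figure D3:**
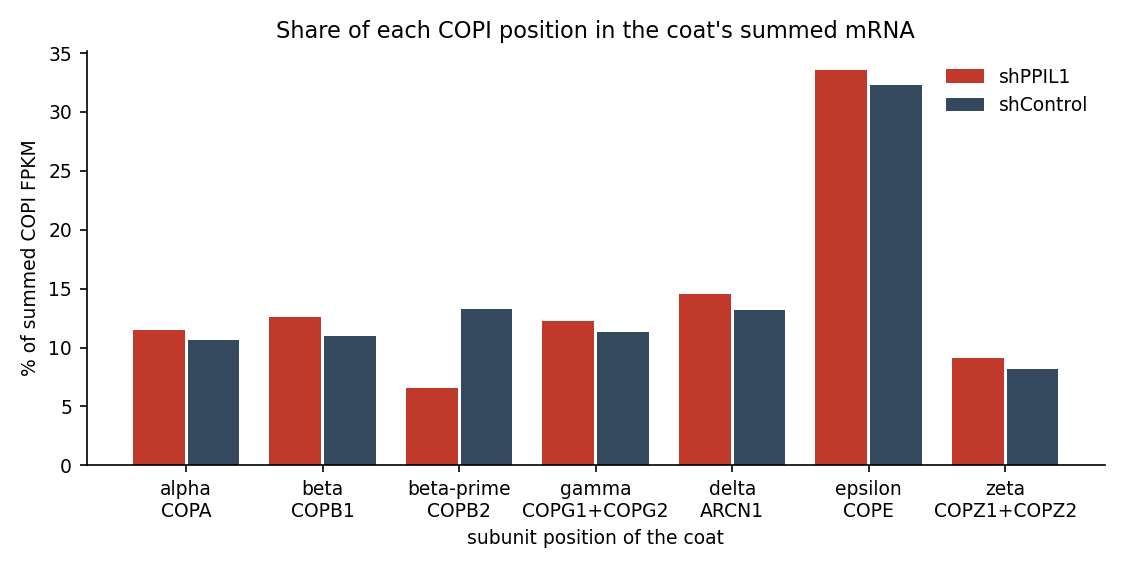
Share of each subunit position in the summed FPKM of the 9 COPI genes, in percent, for shPPIL1 (red) and shControl (dark blue), 1 library each and so without error bars. The beta-prime bar is 6.55% in shPPIL1 and 13.3% in shControl, and each of the other 6 positions has a slightly larger share in shPPIL1.

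Mammals have paired genes for gamma and zeta, and these give alternative forms of coatomer. COPG2 made up 6.57% of the gamma FPKM in shPPIL1 and 7.24% in shControl, and of the gamma reads 6.67% (6.18 to 7.18%) in shPPIL1 and 7.35% (6.84 to 7.88%) in shControl. COPZ2 made up 7.53% of the zeta FPKM in shPPIL1 and 5.98% in shControl, and of the zeta reads 3.59% (3.05 to 4.19%) in shPPIL1 and 2.82% (2.35 to 3.37%) in shControl. The intervals of the shares overlapped between the libraries for both pairs. The longest coding transcripts of COPG1 and COPG2 shared 0 stretches of 32 identical bases, as did those of COPZ1 and COPZ2. No 100-base window of these longest coding transcripts of the COPI genes, taken every 10 bases, exactly matched an annotated transcript of a gene located elsewhere. Other transcripts, near-identical copies and unannotated sequence were not searched.

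Some COPI genes hold a microRNA gene on their own strand, which did not enter their choice. COPG1 contains MIR6826, and both zeta genes contain one. COPZ1, on chromosome 12 from 54301202 to 54351849, contains MIR148B, and COPZ2, on chromosome 17 from 48026167 to 48038030, contains MIR152. The mature 3p forms are shown because they share 1 seed, bases 2 to 8 in capitals (RefSeq, GRCh38.p14).
hsa-miR-148b-3p: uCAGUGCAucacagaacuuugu
hsa-miR-152-3p: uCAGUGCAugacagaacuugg
The level of these microRNAs was not measured in libraries of polyadenylated RNA. The values above are those of the host genes, COPZ1 with 98.5 CPM in shPPIL1 and 101 CPM in shControl, and COPZ2 with 3.67 CPM in shPPIL1 and 2.95 CPM in shControl.

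Sequence around a short motif was then read in the COPI transcripts. The 6 bases GATCAT had been picked in earlier work on these same libraries, so their presence in a lower gene supports nothing. They were searched on the transcript strand of the longest coding transcript of each gene. In the 3' UTR, the untranslated end of the mRNA, GATCAT occurred once in COPB2, COPZ2 and ARCN1 and at 2 places in COPA. It was absent from the searched 3' UTR of COPB1, COPE, COPG1, COPG2 and COPZ1. Other transcripts of these genes were not searched. The COPZ1 transcript searched has 797 bases, while its deposited FPKM implies a gene length of 1864 bases. Among 11957 kept genes with an annotated 3' UTR, 24.04% held the motif there. Among the 1451 of these whose 3' UTR is within 25% of the length of that of COPB2 (457 bases), 8.34% did. COPA and ARCN1 also had it in the coding sequence, as did PPIL1 itself, once each.

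The sites below are shown to compare their flanks with the PPIL1 site, and the capitals mark the motif (GENCODE release 29 transcripts, GRCh38).
PPIL1 coding sequence: ggacgacgtgaaGATCATtaaggcataccc
COPB2 3' UTR: cctgactaaacaGATCATtattatatatag
COPZ2 3' UTR: ccctgccccccaGATCATttccccaatcct
ARCN1 3' UTR: gtcaggcactggGATCATctgtttacaggc
COPA 3' UTR, first site: ctacggtgggcaGATCATctgaggccagga
COPA 3' UTR, second site: gcattcaactgaGATCATaccacttcattc
The COPB2 site begins at base 32 of its 3' UTR. The unbroken run that a site shares with the PPIL1 site was 9 bases in COPB2 (AGATCATTA), 8 in COPZ2, 7 at both COPA sites and 6 in ARCN1. The genes other than COPB2 that carry a 3' UTR site had ratios of 1.24 (COPZ2), 0.980 (ARCN1) and 0.961 (COPA). Of the 5 genes closest to COPB2 in ratio, CANT1, CRKL and DDX21 carried GATCAT in the 3' UTR of the transcript searched. DAP carried it only in the coding sequence of that transcript, at coding base 484 of a 1048-base transcript, and MYC carried it in neither. Other transcripts were not searched, and a site labelled coding can fall in the 3' UTR of another transcript. Of all kept genes with a 3' UTR, 24.04% carried it there, and 8.34% of those near COPB2 in 3' UTR length. Neither share is matched to these genes, since a longer 3' UTR has more places for the motif. The 3' UTR of COPB2 has 457 bases, while the sites reach base 1542 of the 3' UTR in CANT1 and base 3692 in CRKL. In DDX21 the 3' UTR site lies at base 2617 of a 4711-base transcript. The run shared with the PPIL1 site in these 3' UTRs was 8 bases in CANT1 and DDX21 and 6 to 8 in CRKL. The sequence of the hairpin is not in the labels, so whether it overlaps the PPIL1 site shown could not be looked at. The part of these sites in the values was not tested.

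Most other genes of COPI transport were within 1.2-fold. Among all kept genes, 9.52% were at least 1.2-fold lower and 8.32% at least 1.2-fold higher with an interval excluding 1. Most kept genes were thus not past 1.2-fold either, and the counts of 0 in the lists below are to be read beside these shares. The 11 genes of the ARF cycle, which load the coat onto and release it from membranes, had a median log2 ratio of 0.00, with 0 of 11 past 1.2-fold in either direction. GBF1, the exchange factor that activates ARF at the early Golgi, had 11224 reads in shPPIL1 and 10055 in shControl, a ratio of 1.097 (1.07 to 1.13). The GTPase ARF3 had a ratio of 1.09 (1.05 to 1.14). The GTPase-activating proteins ARFGAP3 and ARFGAP1, which switch ARF off, had ratios of 0.889 (0.832 to 0.948) and 0.920 (0.874 to 0.969).

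TMED genes were listed for the p24 proteins, membrane cargo receptors of COPI and COPII vesicles. Of the 10 listed, 2 were at least 1.2-fold lower and 1 at least 1.2-fold higher, with a median log2 ratio of -0.07. Among all kept genes 9.52% were at least 1.2-fold lower and 8.32% at least 1.2-fold higher. With 10 members, counts of 2 and 1 cannot be set apart from these shares. TMED6 was the one at least 2-fold lower, beside 0.518% of all kept genes. It had only 20 reads in shPPIL1 and 42 in shControl, a ratio of 0.468 (0.260 to 0.815). TMED7 had 1091 reads in shPPIL1 and 1330 in shControl, a ratio of 0.806 (0.743 to 0.874). TMED8 had 1918 reads in shPPIL1 and 1496 in shControl, a ratio of 1.26 (1.18 to 1.35). The other 7 members were within 1.2-fold, TMED4 at 1.05 (1.00 to 1.11) among them.

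KDEL receptors and other recycling receptors, which COPI returns to the ER, had 0 of 12 members past 1.2-fold and a median of -0.05. MCFD2, the partner of the lectin LMAN1, had a ratio of 0.896 (0.859 to 0.935), and the cargo receptor SURF4 0.939 (0.916 to 0.962). The lectin LMAN2L and the retrieval receptor RER1 had ratios of 1.11 (1.05 to 1.18) and 1.09 (1.04 to 1.15).

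The tethers and SNAREs that capture and fuse vesicles between Golgi and ER had 1 of 15 members at least 1.2-fold lower and 0 higher (9.52% and 8.32% of all kept genes), with a median of -0.07. USE1, a SNARE of the ER, had 362 reads in shPPIL1 and 435 in shControl, a ratio of 0.818 (0.709 to 0.942). The Golgi SNARE BET1L had a ratio of 0.857 (0.803 to 0.915), and NBAS, a subunit of the ER tether, 1.11 (1.05 to 1.18). Golgi tethers and the COG complex, which captures vesicles within the Golgi, had 0 of 17 members past 1.2-fold and a median of -0.05. USO1 (the tether p115) and TMF1 had ratios of 0.871 (0.844 to 0.899) and 0.844 (0.789 to 0.901), and COG8 and GOLGA2 had 1.15 (1.07 to 1.23) and 1.09 (1.04 to 1.14).

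The COPII coat, which leads out of the ER, had 0 of 16 kept members past 1.2-fold and a median of -0.03. Its extremes were PREB, the exchange factor of SAR1, at 0.883 (0.843 to 0.925), and SEC16A, the scaffold of ER exit sites, at 1.09 (1.05 to 1.14). The GTPase SAR1A had a ratio of 0.892 (0.856 to 0.931), and TFG 1.08 (1.06 to 1.098). Clathrin, which forms an outer cage, and its adaptors, relatives of the inner COPI layer, had 1 of 30 kept members lower and 1 higher at 1.2-fold (9.52% and 8.32% of all kept genes), with a median of 0.03. These were AP1M2, the epithelial AP-1 mu subunit, at 0.805 (0.763 to 0.850) and AP4B1 at 1.24 (1.09 to 1.40). AP5M1 stood at 0.846 (0.805 to 0.888) and AP2A1 at 1.102 (1.06 to 1.15).

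Proteins built like the outer COPI layer from propellers and helical solenoids, as in the nuclear pore, intraflagellar transport and vacuolar sorting complexes, had 0 of 22 members past 1.2-fold and a median of -0.02. NUP155 had a ratio of 0.862 (0.832 to 0.894), WDR19 0.846 (0.775 to 0.923), VPS18 1.104 (1.05 to 1.16) and SEC31A 1.05 (1.02 to 1.07). No member of these coat lists with at least 5000 reads lay as low as COPB2. That holds for any list without COPB2, since it alone was that low among the 3906 such genes.

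Genes induced by stress of the ER were listed because COPI returns ER chaperones. Of 26 genes, 3 were at least 1.2-fold lower and 0 at least 1.2-fold higher, beside 9.52% and 8.32% of all kept genes, with a median of -0.06. TRIB3, a pseudokinase induced through ATF4, had 4729 reads in shPPIL1 and 6307 in shControl, a ratio of 0.737 (0.709 to 0.765). XBP1, the transcription factor activated by IRE1 splicing, had 17676 reads in shPPIL1 and 22105 in shControl, a ratio of 0.786 (0.770 to 0.801). The third was ATF3, with 758 reads in shPPIL1 and 948 in shControl. CRELD2 and SEL1L had ratios of 1.18 (1.12 to 1.26) and 1.11 (1.07 to 1.14). HSPA5, the ER chaperone BiP, was looked up after the values were seen and had 32842 reads in shPPIL1 and 33656 in shControl, a ratio of 0.959.

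**Figure D4:**
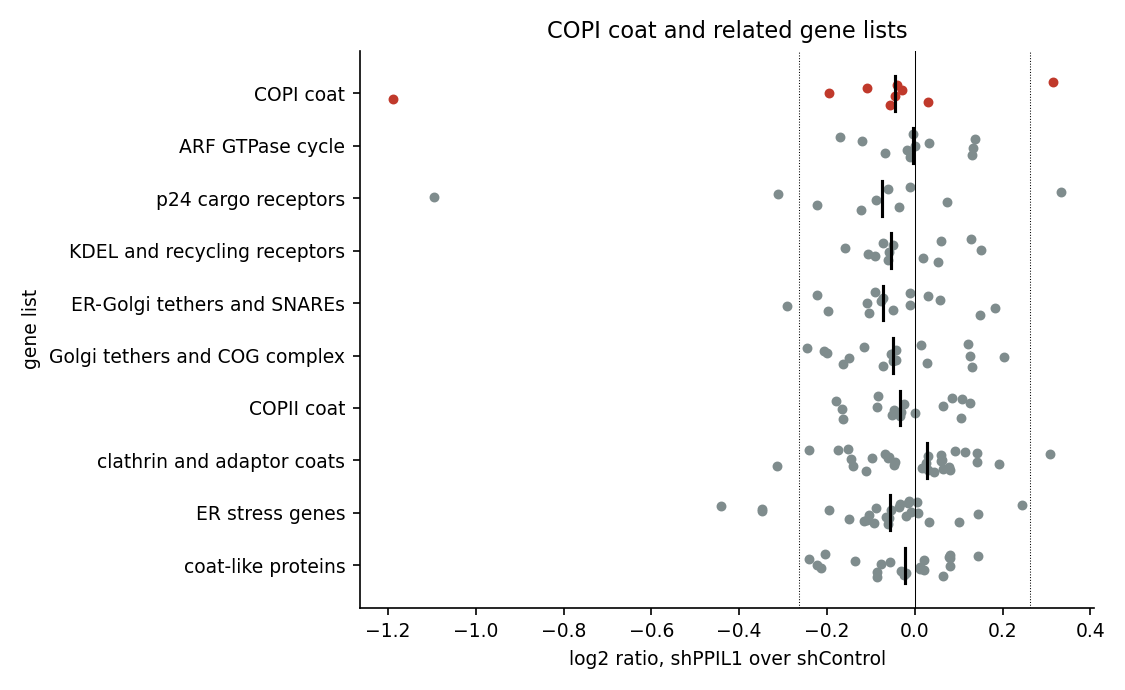
Log2 ratio of shPPIL1 over shControl for each kept gene of the COPI coat (red) and of 9 related gene lists (grey); black bars are list medians, dotted lines mark 1.2-fold, and vertical spread within a row only separates points. COPB2, at -1.19, and the scarcely expressed TMED6, at -1.10, lie apart, and all list medians fall between -0.07 and 0.03.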

How the data were processed

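Messenger RNA of Huh7 cells was sequenced in 2 libraries, 1 per group. A table of unnormalized whole-number counts (19927 gene rows) and 1 table of FPKM values per library were deposited by the authors. Per the submitters' processing notes, the build was hg38. The sources used here do not give the aligner, counter, annotation, strandedness or handling of multiply matching reads. Columns were tied to samples by the names in the labels, and 7 further columns of counts that match no label were not used. Deposited FPKM values imply a whole-number gene length, within 0.001 bases, for 99.9% of genes above 0.

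From the counts, library sizes were scaled by TMM factors (edgeR 4.0.16, R 4.3.3), 1.01 for shPPIL1 and 0.993 for shControl. Genes at 1 CPM or more in at least 1 library (12540) were kept. Ratios have exact 95% Clopper-Pearson counting intervals (scipy 1.17.1). A gene was called at 1.2-fold or 2-fold when its ratio passed that fold and its interval excluded 1. The steps were run on simulated libraries with Poisson counts. These hold no variation between cultures or libraries, so the run checked the computation only. Size factors of DESeq2 1.42.0, total reads, other filters and log2(FPKM + pseudocount) were alternatives.

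Members, lists and tests were chosen with earlier results of these data known. Named genes are PPIL1, the 9 members, up to 2 higher and 2 lower genes per list with the most extreme interval bounds, the 5 most like COPB2 and its neighbours. Cell type markers, overlapping genes and, chosen after their values were seen, ATF3, HSPA5 and SEC16B are also named. A planned list of proteins with retrieval signals at the C terminus was not made, as no protein table was used here. Transcripts, exons and UTRs came from GENCODE release 29, gene order and microRNAs from RefSeq (GRCh38.p14).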

Additional observations from a re-analysis of the deposited data

How the results depend on the processing

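COPB2 kept its direction and its size under all alternatives run, with a log2 ratio between -1.19 and -1.15. It was the lowest gene with at least 5000 reads in each. No member changed sign. With log2(FPKM + 1) the PPIL1 value was -3.24 against -3.88, since a pseudocount shrinks low values. At 1.1-fold, 2 members were lower. By either FPKM scale, which has no interval, 1 member (COPZ2) was at least 1.2-fold higher, and with total reads 1 member (COPB1) was higher at any fold, an alternative added after the data were seen. The mean log2 ratio of the members was -0.15.

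Over all genes, 701 were 1.2-fold lower with log2(FPKM + 1). The counts at least 2-fold lower and higher were 319 and 337 without a filter, 11 and 7 at 5 CPM, 8 and 4 with log2(FPKM + 1), and 27 and 32 with log2(FPKM + 0.1), against 65 and 66. Among p24 receptors, 1 gene was 1.2-fold lower at 5 CPM and with log2(FPKM + 1), and 0 were 2-fold lower at 5 CPM or on either FPKM scale. With log2(FPKM + 1), 0 tethers and SNAREs were 1.2-fold lower. Without a filter, 1 COPII gene (SEC16B, with 6 reads in shPPIL1 and 16 in shControl) was 1.2-fold and 2-fold lower. With total reads, 1 ER stress gene was 1.2-fold higher. Other list counts and medians moved by less than their limits. By reads in place of FPKM, COPZ2 held 3.59% of zeta in shPPIL1 and 2.82% in shControl, and COPB2 held 7.78% of the coat in shPPIL1 and 15.7% in shControl, because gene lengths differ.

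No paired analysis was possible because each group holds 1 library. Depth limits genes with few reads, such as COPZ2 and TMED6, at 20 to 152 reads.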

Other observations

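The 9-base run AGATCATTA that the COPB2 3' UTR shares with the PPIL1 coding sequence was chosen after the values were seen. It occurred in the 3' UTR of 90 of 11957 kept genes (0.753%). Their median log2 ratio was -0.08, beside 0.00 for all 11957. Of the 90 genes, 16 were at least 1.2-fold lower and 8 at least 1.2-fold higher with an interval excluding 1, or 17.8% and 8.89%, beside 9.48% and 8.09% of all 11957. The 6-base motif GATCAT was in 2875 3' UTRs, with a median of -0.03. Of these 2875 genes, 354 were at least 1.2-fold lower (12.3%, beside 9.48%) and 196 at least 1.2-fold higher (6.82%, beside 8.09%). Both sequences were picked with values of these libraries known, and COPB2 is among the carriers of each. These shares therefore support nothing, and the part of either sequence in these values was not tested.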
